A study of Mus musculus with 4 samples.

Results

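The cells whose barcodes end in suffix 3 were compared with those whose barcodes end in suffix 4, 2 of the 4 libraries of a single-cell RNA sequencing study of mouse leukaemia. All barcodes of both suffixes with at most 10% of their unique molecular identifiers (UMIs, which count transcript molecules) on mitochondrial genes were kept. They came to 1625 in suffix 3 and 1406 in suffix 4, or 3031 of the 5456 kept in the series. Nothing links a suffix to a sample, so no condition is assigned to either. Each suffix is 1 library, so no difference between them has a replicate check. The 95% intervals given with values cover counting error only.

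The study sorted GFP-positive leukaemia cells from the marrow of crista, femur and tibia of C57BL6 mice aged 11 weeks, with 1 sample in each of 4 groups, Hif-1a wt or KO, each with PBS or chemotherapy. All 4 groups go back to c-Kit-positive marrow of Hif-1alphaLox/Lox; CreERT2 mice transduced with an MLL-AF9 retrovirus, so the floxed allele, the tamoxifen-inducible Cre and the fusion oncogene are shared by controls and knockouts. Primary leukaemias raised in wild type mice were transplanted again, and 10 days later the recipients were injected for 5 days with 1 mg tamoxifen or with vehicle. Chemotherapy combined 5 days of cytarabine (100 mg/kg) and 3 days of doxorubicin (3 mg/kg), with PBS as its control, and the marrow was collected 3 days after the last treatment. The labels do not give the number of mice or of primary leukaemias behind a sample.

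MLL-AF9 is a fusion of a histone methyltransferase with a partner that recruits transcription elongation factors, and it drives an acute myeloid leukaemia whose cells keep part of the granulocyte and monocyte programme. Granulocytes make their granule proteins in order: elastase and myeloperoxidase in precursors, then lactoferrin and cathelicidin, then gelatinase. Maturing granulocytes also hold much calprotectin, a complex of 2 S100 proteins in the cytosol. HIF-1, whose oxygen-regulated subunit is encoded by Hif1a, binds short motifs called hypoxia response elements and raises glycolytic enzymes and other genes of the response to low oxygen.

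Suffixes 3 and 4 were close in depth, at medians of 5315 and 5324 UMIs and 1707 and 1734 genes per barcode, with 9932649 and 8550371 UMIs in all. The median mitochondrial share was 2.53% and 2.69%, and the limit removed 71 of 1696 and 44 of 1450 barcodes. The suffixes shared 2 kept barcode sequences. Summed markers of erythroid cells (4.33 and 3.98 CPM, counts per 1000000 UMIs) and megakaryocytes (3.73 and 4.09 CPM) were low in both. Those of B cells summed to 67.2 and 69.8 CPM, mostly Cd79b (65.2 and 68.2 CPM). Those of stromal and endothelial cells summed to 82.6 and 87.4 CPM, mostly Pecam1 (80.1 and 85.5 CPM). Sums that rest on 1 gene are not read as amounts of such cells. Of the T and NK cell list only Nkg7, a granule membrane protein also made by granulocyte precursors, reached a mean of 5 CPM, at 15.2 CPM in suffix 3 and 5.03 CPM in suffix 4.

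The profiles of suffixes 3 and 4 lay close together. Among 4757 genes at 20 CPM or more in either suffix, 88.6% were within 1.2-fold, and Pearson's r of log2(CPM + 1) across these genes, which are not independent, was 0.993. Genes were counted as different where they were at least 1.5-fold apart, at 20 CPM or more in the higher suffix, with an interval that excluded 1. By this rule 59 genes (1.24%) were higher in suffix 3 and 7 genes (0.147%) were higher in suffix 4. The rule counted a similar 1.08% of genes between suffixes 1 and 2. It counted 31.9% between suffixes 1 and 3 and 27.2% between 1 and 4, and 25.1% between 2 and 3 and 20.9% between 2 and 4. A 1.2-fold rule, used for gene lists on 8204 genes with a mean of 5 CPM or more, counted 3.74% as higher in suffix 3 and 5.64% as higher in suffix 4.

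**Figure D1:**
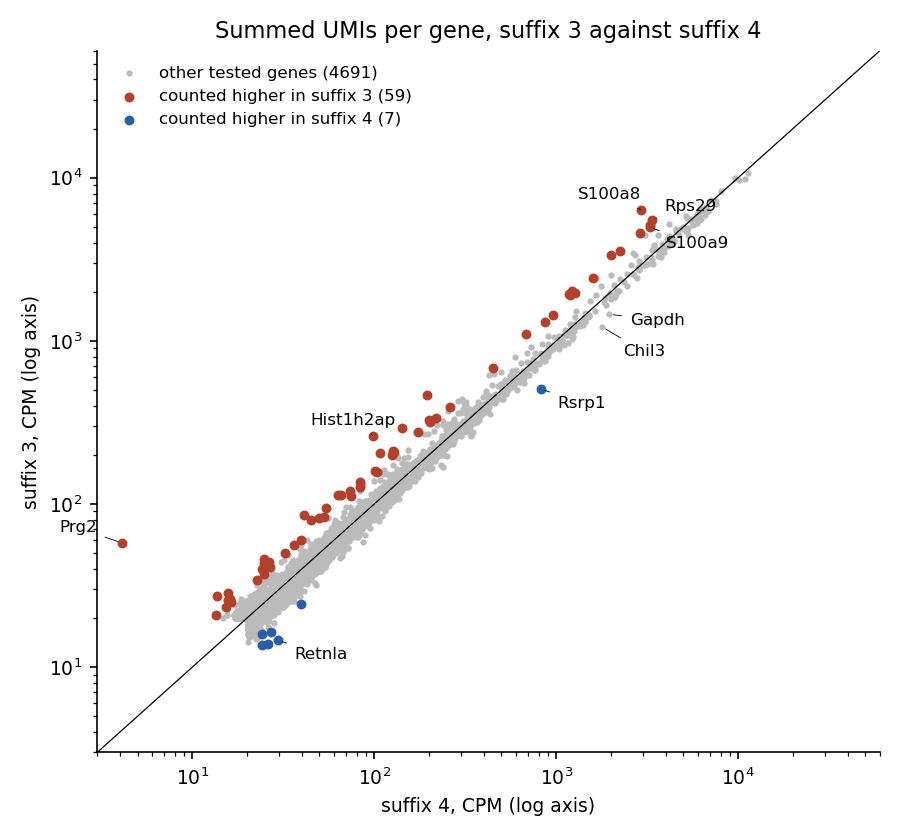
Each point is a gene, with its level in suffix 4 on the horizontal axis and in suffix 3 on the vertical axis, both as CPM on log scales, and genes counted by the 1.5-fold rule in colour. Most points hug the line of equal levels, with 59 coloured genes above it and 7 below it.

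Suffix 3 stood apart from the other 3 libraries in its short transcripts. A length in GENCODE vM21, the median over a gene's transcripts, was found for 58 of the 59 genes higher in suffix 3, and 33 of those (56.9%) were under 600 bases, against 269 of 4623 tested genes with a length (5.82%). The 22 tested genes under 400 bases had a median log2 ratio of suffix 3 over 4 of 0.64, and 19 of them were above 0. Their median was 0.68 in suffix 3 over 1 and 0.73 in suffix 3 over 2, but -0.01 in suffix 1 over 2 and 0.08 in suffix 4 over 1. From 400 to under 600 bases the median of suffix 3 over 4 was 0.05, and from 600 to under 1000 bases it was -0.05. Inside 8 groups of barcodes divided by marker genes, described further on, the median of the genes under 400 bases was between 0.49 and 0.70. With each ratio centred on the median of genes of like length, 43 genes were higher in suffix 3 and 9 in suffix 4. Short transcripts and the suffix cannot be told apart here as a feature of the library or of its cells.

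**Figure D2:**
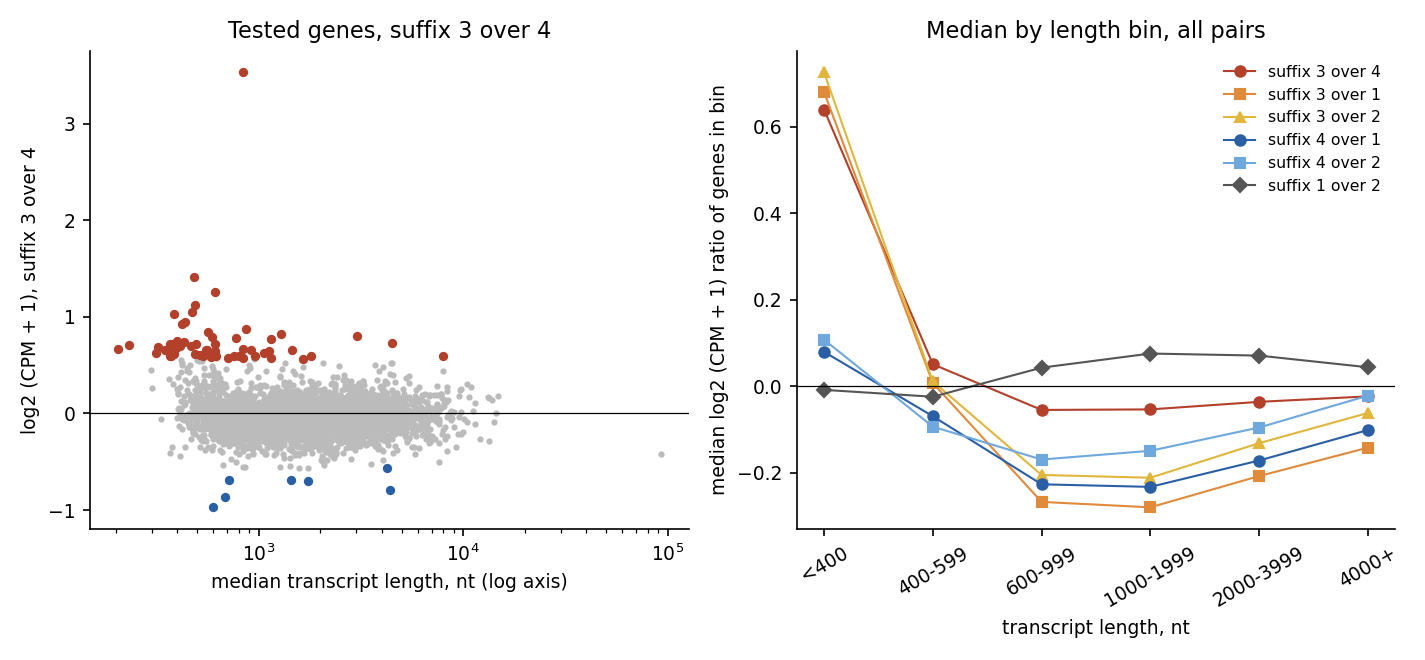
The left panel plots the log2 ratio of suffix 3 over 4 (1 CPM added) of each tested gene against transcript length on a log axis, with counted genes in colour, and the right panel plots the median log2 ratio in each length class for each pair of suffixes. Under 400 bases the 3 pairs that hold suffix 3 sit between 0.64 and 0.73, and the pairs without it sit between -0.01 and 0.11.

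Many of these short genes encode small subunits of the ribosome and of the respiratory chain. Of 81 ribosomal protein genes, 18 were higher in suffix 3 and 0 in suffix 4 by the 1.2-fold rule, while the median log2 ratio of the list was 0.00. Rps27, of the small subunit, stood at 3349 CPM in suffix 3 and 1991 CPM in suffix 4, a ratio of 1.68 (1.65 to 1.71), against 1790 CPM in suffix 1 and 1875 CPM in suffix 2. Rpl38 of the large subunit stood at 2012 and 1219 CPM, and Rps29 at 5535 and 3366 CPM. Suffixes 1, 2 and 4 lay near each other for Rps27, and suffix 3 lay above all of them. For Rps29 suffix 4 also lay above suffixes 1 and 2, which stood at 2461 and 2493 CPM. Among the 27 ribosomal protein genes under 600 bases 22 had a ratio of suffix 3 over 4 above 1, with 105712 against 92127 CPM summed. Among the 54 longer ones 18 had a ratio above 1, with 223461 against 225729 CPM. These counts take any ratio above 1 and do not use the 1.2-fold rule. By this length the longer class also held genes as far apart as the short ones, such as Rpl37 (835 bases, ratio 1.59), Rpl39 (612 bases, 1.57) and Rpl35 (946 bases, 1.48). The length is a median over a gene's annotated transcripts and may not be that of the transcript counted.

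Nuclear genes of oxidative phosphorylation followed the same line, with 20 of 75 higher in suffix 3, 0 higher in suffix 4 and a median log2 ratio of 0.04. Ndufa3, a complex I subunit, stood at 213 CPM in suffix 3 and 127 CPM in suffix 4, Cox7c of complex IV at 629 and 454 CPM, and Atp5k of the ATP synthase at 208 and 129 CPM. The mitochondrial genome showed both directions. Its short genes mt-Atp8 (1.63 times, 25.7 against 15.8 CPM), mt-Nd3 (1.58 times) and mt-Nd4l (1.38 times) were higher in suffix 3, and the longer mt-Cytb and mt-Nd1 had ratios of 0.882 and 0.883. Hist1h2ap, a replication-dependent H2A gene, stood at 65.1, 28.3, 263 and 97.9 CPM in suffixes 1 to 4, and 411 barcodes of suffix 3 and 207 of suffix 4 held it. Gm10076 (290 against 142 CPM) and the histone genes have near-identical copies, so their counts are uncertain where reads could be divided among copies.

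Several genes of maturing granulocytes were higher in suffix 3, and they did not move as one group. Of 22 measured members of the secondary and tertiary granule list, which also holds the calprotectin genes S100a8 and S100a9, 9 were higher in suffix 3 and 2 in suffix 4, the median log2 ratio was 0.13 (0.04 to 0.59), and the summed level was 21565 against 16548 CPM. Without S100a8 and S100a9 the summed level was lower in suffix 3, at 10243 against 10372 CPM, while the median stayed above 0, at 0.11 (0.04 to 0.44), a choice made after the data were seen. With the share of each marker gate, described further on, held at its pooled value, that median was -0.027. In sums over barcodes, more cells of a type and more RNA per cell cannot be told apart. S100a8, which with S100a9 forms calprotectin and lies on chromosome 3 (90668978 to 90670035, plus strand, GRCm38), stood at 424, 693, 6354 and 2919 CPM in suffixes 1 to 4. Its ratio of suffix 3 over 4 was 2.18 (2.15 to 2.21), and suffixes 3 and 4 both lay far above 1 and 2. S100a9 stood at 196, 432, 4968 and 3258 CPM, a ratio of 1.52 (1.5 to 1.55). Ltf (lactoferrin, 114 against 62.9 CPM), Mmp9 (gelatinase B, 25 against 16.3 CPM), Retnlg, Wfdc21, Pglyrp1, Itgb2l and Padi4 were also higher in suffix 3. Camp, the cathelicidin gene, was at 3069 against 2862 CPM, a ratio of 1.07.

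Chil3, which encodes a chitinase-like protein of granulocytes and monocytes, went the other way. It stood at 11.8, 27.4, 1216 and 1789 CPM in suffixes 1 to 4, a ratio of suffix 3 over 4 of 0.680 (0.663 to 0.696). Anxa1, encoding annexin A1, was at 198 against 238 CPM. The stefin genes, cysteine protease inhibitors in a cluster of near-identical copies, were higher in suffix 3: Stfa2 at 85.8 against 40.9 CPM, Stfa2l1 at 205 against 107 CPM and Stfa1 at 1947 against 1274 CPM. Reads shared among these copies make the level of each uncertain.

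Barcodes were then divided into groups by fixed marker genes. A barcode entered a gate where the gate's genes held at least 2 times their pooled share of UMIs and at least 3 UMIs, and a barcode that met several gates, as 765 of 3031 did, went to the one with the highest multiple. A gate is a range of a score and not a cell type, and between 29 barcodes (Prg2 and Prg3 gate) and 475 barcodes (monocyte gate) lay from 1.5 to 2.5 times the pooled share. The neutrophil gate (S100a8, S100a9, Ngp, Camp, Ltf, Lcn2) held 117 of 1625 barcodes of suffix 3 (7.20%, 5.99 to 8.57) and 88 of 1406 of suffix 4 (6.26%, 5.05 to 7.65). The monocyte gate held 7.63% and 7.97%, the Gsn and Tsc22d1 gate 9.91% and 9.89%, the Cd34 and Flt3 gate 8.37% and 9.53%, and no gate 32.2% and 34.4%. The intervals of the ratio of shares held 1 for each of these.

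Shares differed beyond counting error for 2 gates. The Lpl and Wfdc17 gate, also led by the interferon-induced Ifitm3, Irf7 and Ifit3 and by Apoe, held 270 barcodes of suffix 3 (16.6%) and 179 of suffix 4 (12.7%), a ratio of 1.31 (1.08 to 1.59). Wfdc17 is itself a short gene higher in suffix 3, and with Wfdc17, S100a8 and S100a9 left out of the gates, a choice made after the data were seen, the ratio was 1.14. The Elane-high precursor gate (Elane, Ms4a3, Nkg7) held 180 barcodes (11.1%) and 192 barcodes (13.7%), a ratio of 0.811 (0.658 to 0.999). The mast and basophil gate (Cpa3, Mcpt8, Ms4a2, Gata2) held 92 (5.66%) and 58 (4.13%), a ratio of 1.37 (0.977 to 1.94). The neutrophil gate held 4 barcodes of suffix 1 and 8 of suffix 2, and the Lpl and Wfdc17 gate 3 and 17.

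**Figure D3:**
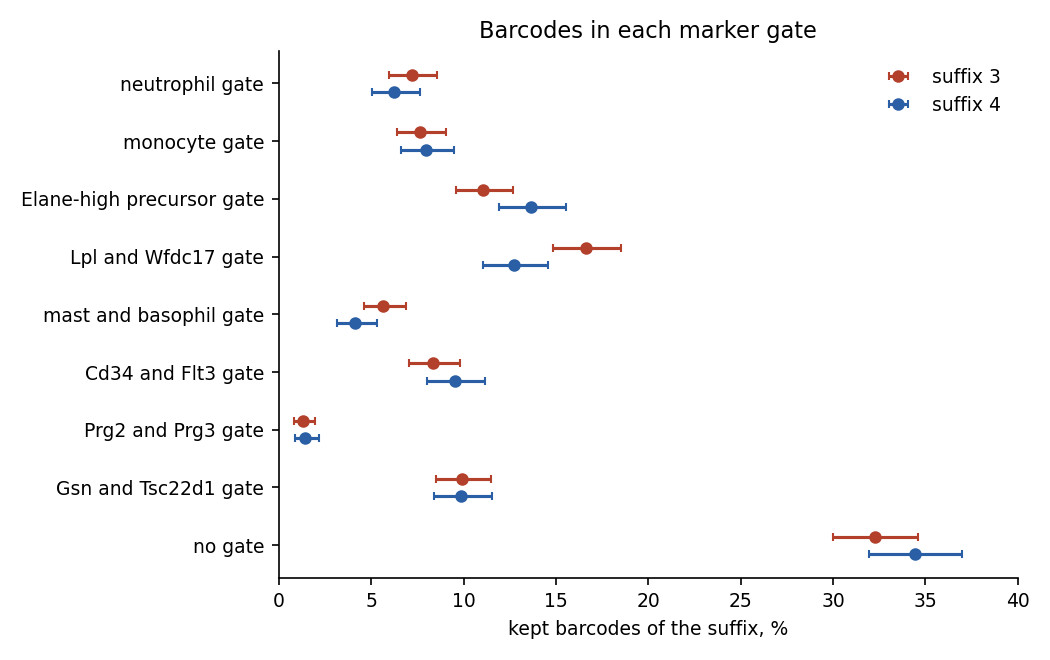
Points give the share of kept barcodes in each marker gate, in percent on the horizontal axis, for suffixes 3 and 4, with exact binomial 95% intervals as error bars. The gap is widest for the Lpl and Wfdc17 gate, at 16.6% and 12.7%.

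Inside the gates the calprotectin genes kept their direction, and Camp did not. S100a8 stood at 75545 CPM in suffix 3 and 44379 CPM in suffix 4 inside the neutrophil gate, a ratio of 1.70, and its ratio was between 1.5 and 3.74 across the 8 groups. S100a9 was higher in suffix 3 in all 8 groups, with 1.18 inside the neutrophil gate (63151 against 53615 CPM) as its lowest ratio. Camp was lower in suffix 3 inside the neutrophil gate, at 37635 against 46796 CPM (0.804, 0.790 to 0.818), and higher in suffix 3 in the other 7 groups, at 1.48 to 2.42 times. Ngp, which encodes neutrophilic granule protein, was at 24288 against 26735 CPM (0.908, 0.888 to 0.929) inside that gate, a ratio that became 1.01 (0.985 to 1.03) with edgeR's TMM factors. These factors shifted all ratios of that gate by 0.15 on the log2 scale and left Camp at 0.892. S100a8, S100a9, Camp and Ngp are themselves genes of the gate. Chil3, which is not, was lower in suffix 3 inside the neutrophil gate (12592 against 17165 CPM, 0.734). Its ratio was 0.238 in the Lpl and Wfdc17 gate, 0.315 in the Elane-high gate, 0.385 in the monocyte gate and 0.441 outside all gates. In the Gsn and Tsc22d1 gate, the Cd34 and Flt3 gate and the mast and basophil gate the ratio of Chil3 was 0.837, 0.906 and 1.05, with intervals that held 1.

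Transcripts of S100a8, S100a9 and Camp also reached barcodes outside the neutrophil gate, more often in suffix 3. S100a8 had at least 1 UMI in 1121 of 1508 such barcodes of suffix 3 (74.3%) and 535 of 1318 of suffix 4 (40.6%), at median depths of 5207 and 5322 UMIs. With each barcode thinned to 2000 UMIs, which leaves out 45 kept barcodes of suffix 3 and 20 of suffix 4, the shares were 44.9% and 19.0%. In droplets, free RNA gives UMIs in cells that do not express a gene. In the Cd34 and Flt3 gate, which is part of the barcodes outside the neutrophil gate, S100a8 was found in 114 of 136 barcodes (83.8%) and 48 of 134 (35.8%). The median depths there were 5956.5 and 5641.5 UMIs. The shares outside the neutrophil gate are not read as expression, and the part of free RNA in them was not tested. A share does not give the level, which differed between groups. S100a8 stood at 2589 CPM in suffix 3 and 883 CPM in suffix 4 in the Elane-high gate. In the Cd34 and Flt3 gate it stood at 285 and 76.1 CPM. Outside the neutrophil gate Camp was found in 48.5% and 30.05% of barcodes, S100a9 in 60.5% and 35.8%, and Chil3 in 32.0% and 37.3%. UMIs of S100a8 per UMI of S100a9 were 1.196 in suffix 3 and 0.828 in suffix 4 inside the neutrophil gate. They were 1.59 (1.29 to 1.95) and 0.984 (0.679 to 1.42) in the Cd34 and Flt3 gate and 3.39 and 2.36 in the Elane-high gate. In 3 groups suffix 3 had the lower value: 1.24 and 1.7 in the monocyte gate, where the intervals overlapped, 2.7 and 4.39 in the Lpl and Wfdc17 gate, and 2.06 and 2.77 outside all gates. The part of free RNA in these differences was not tested.

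**Figure D4:**
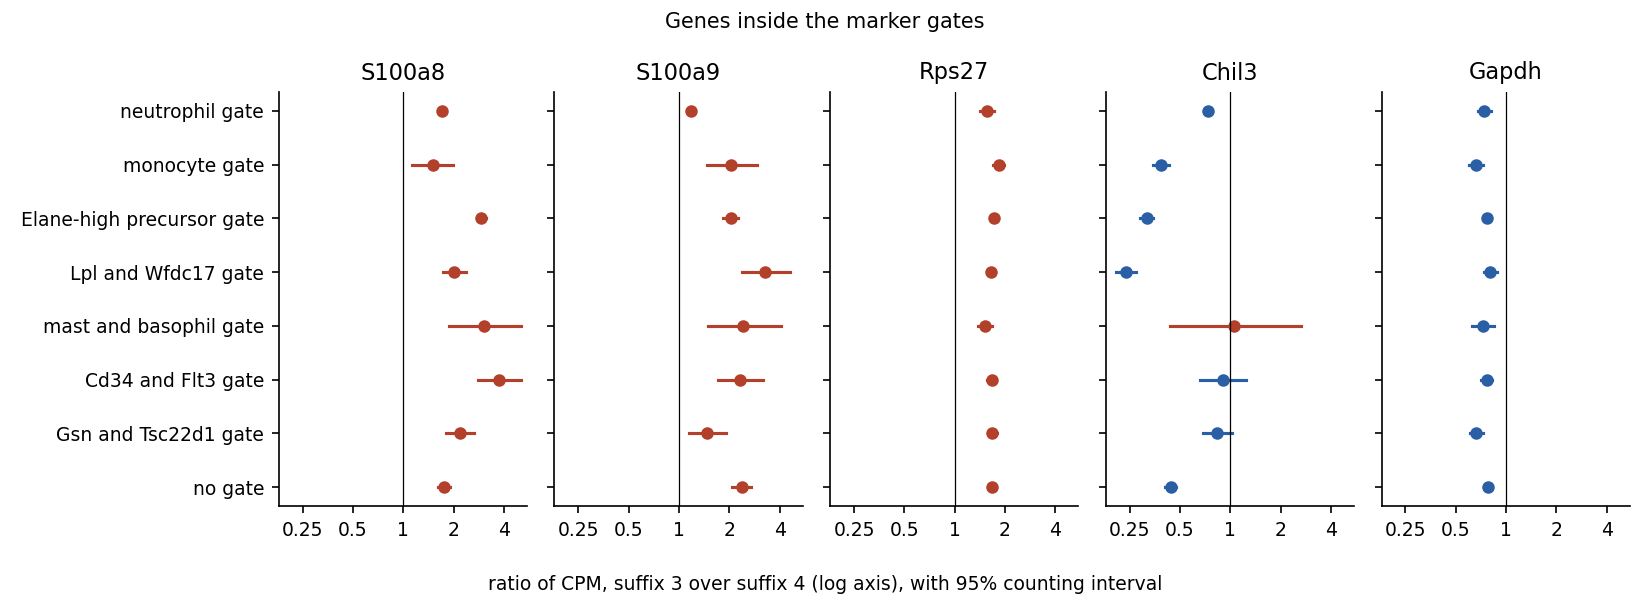
Points give the ratio of suffix 3 over suffix 4 on a log axis for S100a8, S100a9, Rps27, Chil3 and Gapdh in each of the 8 groups of barcodes, with 95% counting intervals as bars. S100a8 and Rps27 sit above 1 in all 8 groups, Gapdh sits below 1 in all 8, and Chil3 is lowest in the Lpl and Wfdc17 gate, at 0.238.

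Some genes of eosinophils and mast cells were higher in suffix 3, the leading one through few barcodes. Of 7 measured members of the eosinophil, basophil and mast cell list, 3 were higher in suffix 3 and 0 in suffix 4. Prg2, which encodes eosinophil major basic protein and lies on chromosome 2 (84980461 to 84983632, plus strand, GRCm38), stood at 57.8 CPM in suffix 3 (574 UMIs in 47 barcodes) and 4.09 CPM in suffix 4 (35 UMIs in 7 barcodes). It had 29 UMIs in suffix 2 and 0 UMIs in suffix 1, which allows up to 0.392 CPM there. The ratio of suffix 3 over 4 was 14.1 (10.0 to 20.5), and 1 barcode held 28.6% of the UMIs of suffix 3. Prg3, its paralogue, was at 15.5 and 17.0 CPM in 61 and 66 barcodes and did not differ beyond counting error. The Prg2 and Prg3 gate held 21 and 20 barcodes, too few for gene ratios inside it. Cpa3, carboxypeptidase A of mast cells, stood at 83.7 against 52.9 CPM (1.58, 1.41 to 1.78), and at 2031 against 1378 CPM inside the mast and basophil gate, of which it is a gate gene. Gata2, a transcription factor of that lineage and of progenitors, was at 30.2 against 24.2 CPM.

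Glycolytic genes were lower in suffix 3 than in suffix 4. Of 19 measured members of the glycolysis list, 8 were higher in suffix 4 and 2 in suffix 3 by the 1.2-fold rule, the summed level was 5070 against 6137 CPM, and the median log2 ratio was -0.27 (-0.42 to -0.05), against -0.04 over all 8204 genes. Gapdh, the enzyme of the oxidative step, stood at 1471, 1936, 1455 and 1951 CPM in suffixes 1 to 4, so that suffixes 1 and 3 lay together and 2 and 4 lay together. Its ratio of suffix 4 over 3 was 1.34 (1.31 to 1.37). Pgam1, phosphoglycerate mutase, stood at 798 against 876 CPM, inside the 1.2-fold limit. Ldhb, the lactate dehydrogenase subunit of oxidative tissues, stood at 10.4 against 18.7 CPM, and the aldolase gene Aldoc at 8.15 against 12.4 CPM. The members named next were chosen after their values were seen. Enolase Eno1 stood at 168 CPM in suffix 3 and 238 CPM in suffix 4, and lactate dehydrogenase A, Ldha, at 354 against 433 CPM. The aldolase gene Aldoa stood at 499 against 609 CPM and the triosephosphate isomerase gene Tpi1 at 266 against 339 CPM. Pgk1, phosphoglycerate kinase, went the other way, at 29.8 against 23.6 CPM, as did Pfkfb4, at 7.95 against 5.38 CPM.

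Genes induced by HIF-1 outside glycolysis had the same direction. Of 20 measured members 0 were higher in suffix 3 and 8 in suffix 4, with 1144 against 1302 CPM summed and a median log2 ratio of -0.23 (-0.39 to -0.06). Mif, a cytokine, stood at 576, 841, 262 and 342 CPM in suffixes 1 to 4, and the mitophagy receptor gene Bnip3l at 117, 146, 210 and 225 CPM. Narf, a nuclear protein that binds prelamin A, stood at 9.16, 19.6, 13.6 and 24.2 CPM, a ratio of suffix 4 over 3 of 1.78 (1.43 to 2.23). Egln3, a prolyl hydroxylase that marks HIF subunits for decay, stood at 17.9, 26.4, 4.73 and 8.77 CPM. Narf and Egln3 are thus higher in suffix 2 than in 1 and in suffix 4 than in 3. Ddit4 (an mTOR inhibitor, 14.9 against 19.9 CPM), P4ha1 (collagen prolyl hydroxylase, 5.54 against 8.42 CPM), Slc2a1 (glucose transporter, 8.15 against 11.2 CPM), Egln1 and Ccng2 made up the rest of the 8. Hif1a itself had a ratio of suffix 3 over 4 of 1.11 (0.931 to 1.33), and UMIs counted outside a deleted part of the gene would check nothing about genotype. Ankrd37, a HIF target under the 5 CPM minimum and picked after its values were seen, had 14, 112, 8 and 57 UMIs in suffixes 1 to 4, in 14, 100, 8 and 57 barcodes, at most 2 in any barcode. Suffixes 2 and 4 held most of them.

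Suffixes 1 and 2 share no library with 3 and 4, and the same lists can be set beside them. Between suffixes 1 and 2 the 1.2-fold rule counted 8.23% of 8200 genes as higher in suffix 1 and 2.89% as higher in suffix 2. Of the 19 glycolysis genes 10 were higher in suffix 2, and 7 were higher both in suffix 4 than in 3 and in suffix 2 than in 1: Aldoa, Aldoc, Eno1, Gapdh, Ldha, Pfkl and Tpi1. Ldhb passed the rule between suffixes 3 and 4 and not between 1 and 2. Pfkp, Pkm and Slc16a3 passed it between 1 and 2 and not between 3 and 4. Hk1 (ratio of suffix 1 over 2 of 1.36, 1.12 to 1.655) and Pgk1 (1.51, 1.23 to 1.85) were higher in suffix 1 than in 2. Pgk1 was also higher in suffix 3 than in 4. Of the 20 other HIF-induced genes 8 were higher in suffix 2, and 5 were higher in both 2 and 4: Ddit4, Egln3, Mif, Narf and P4ha1. Singly, 5.64% of all listed genes were higher in suffix 4 than in 3, and 2.89% in suffix 2 than in 1. The share of all genes higher in both is not given here, so the overlaps have no baseline. The secondary and tertiary granule list went otherwise: 11 of 22 genes were higher in suffix 2 than in 1, and of these only Chil3 was also higher in suffix 4 than in 3. Few barcodes carry these genes in suffixes 1 and 2, where the neutrophil gate held 4 and 8. The 4 highest barcodes held 55% of the S100a8 UMIs of suffix 1 and 32.5% of those of suffix 2. S100a8, S100a9 and Wfdc21 were higher in suffix 2 than in 1 but higher in suffix 3 than in 4. The difference between these 2 contrasts was not tested.

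Promoter sequence was read for the members these results turn on, to show where the core letters of the hypoxia response element lie. ACGTG or its reverse complement CACGT, which overlap in CACGTG, was searched on both strands in the 250 bases before each start in the RefSeq table (GRCm38.p6), and 5444 of 32851 windows (16.6%) held it. It was present in at least 1 window for 9 of 19 glycolysis genes and 11 of 17 HIF-induced genes, and for 2 of the 8 and 5 of the 8 of these higher in suffix 4. These are counts of genes, some with 3 windows, and the 16.6% is a share of windows, so they cannot be set against each other. A match is a description of the letters and no sign of binding. The stretches below run 5′ to 3′ along the gene's strand, with the motif in capitals. They lie at chr7:46845750-46845794 (plus strand) for Ldha, chr7:126799356-126799400 (minus strand) for Aldoa, chr12:54204079-54204123 (minus strand) for Egln3, chr10:59323260-59323295 (plus strand) for P4ha1 and chr4:119108689-119108733 (plus strand) for Slc2a1.
Ldha: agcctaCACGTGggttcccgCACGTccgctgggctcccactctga
Aldoa: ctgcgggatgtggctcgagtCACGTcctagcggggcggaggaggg
Egln3: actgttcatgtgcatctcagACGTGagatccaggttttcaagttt
P4ha1: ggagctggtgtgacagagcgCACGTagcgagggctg
Slc2a1: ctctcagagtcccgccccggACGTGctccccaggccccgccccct
Ldha, with 5 matches in its window, and Slc2a1 were both lower in suffix 3, while the windows of Gapdh, Eno1 and Tpi1, also lower in suffix 3, held no match.

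**Figure D5:**
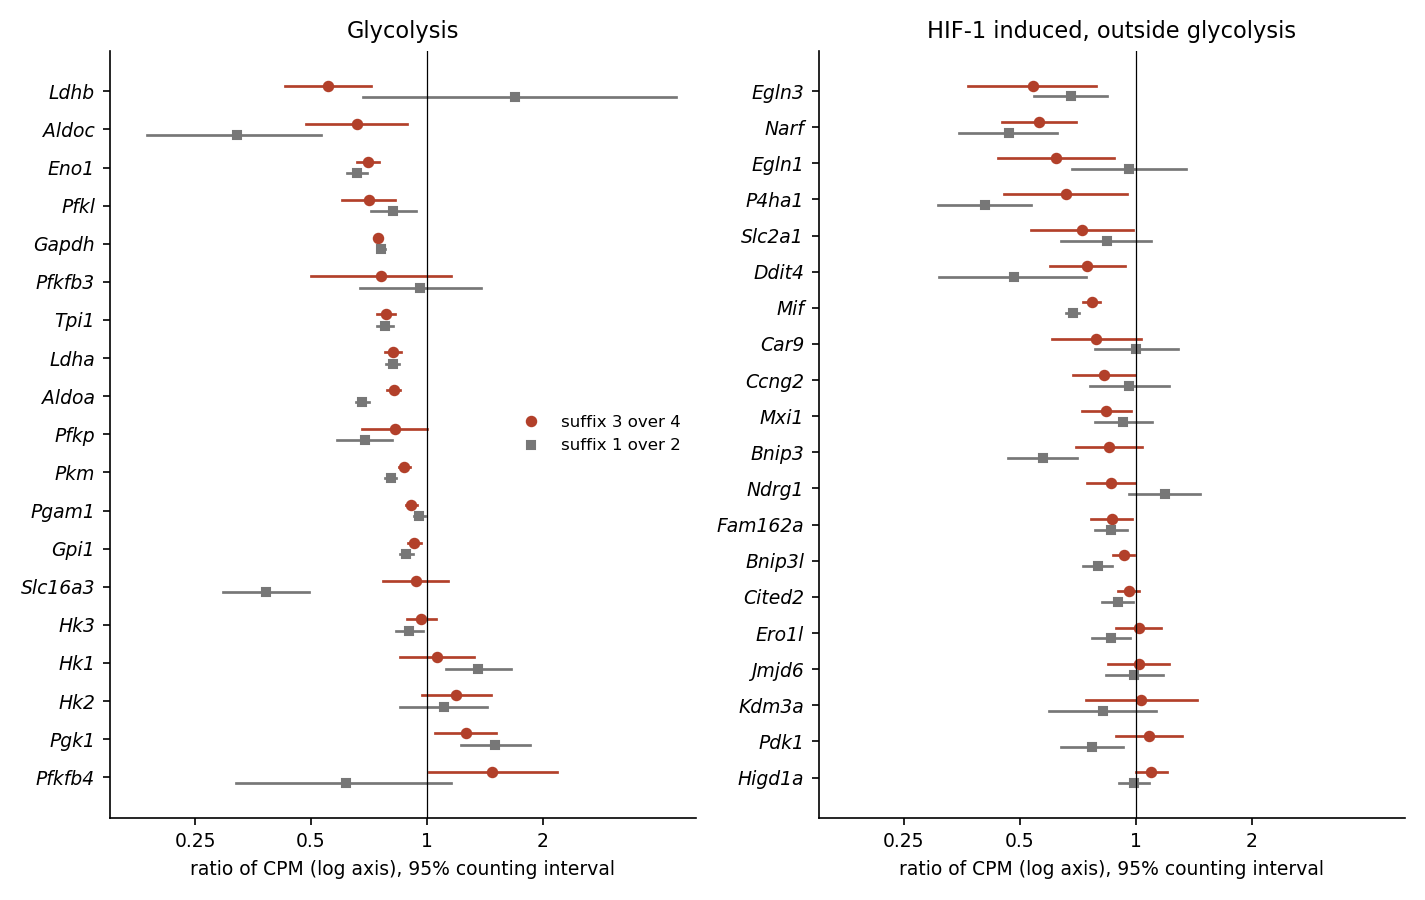
Each row is a glycolysis or HIF-induced gene, with the ratio of suffix 3 over 4 and of suffix 1 over 2 on a log axis and 95% counting intervals as bars. Gapdh, Eno1, Aldoa, Mif, Narf and Egln3 lie below 1 for both pairs, and Ldhb lies below 1 for suffix 3 over 4 and above 1, with an interval that holds 1, for suffix 1 over 2.

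Inside the marker gates the summed glycolysis level was lower in suffix 3 in all 8 groups, at 0.766 times suffix 4 in the monocyte gate to 0.901 times in the mast and basophil gate. Gapdh was lower in each, at 0.663 to 0.804. The median over members was less even: it was -0.31 in the monocyte gate and -0.02 in the mast and basophil gate. In the neutrophil gate it was -0.09, and 0.06 with TMM factors. The summed level of the other HIF-induced genes was 0.801 to 0.922 times suffix 4 in 7 groups and 1.19 times (1.03 to 1.38) in the mast and basophil gate.

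Genes of the G2 and M phases were lower in suffix 3. Of 49 measured members 0 were higher in suffix 3 and 15 in suffix 4, with 3508 against 4034 CPM summed and a median log2 ratio of -0.20 (-0.28 to -0.16), while of 44 S phase genes 0 were counted either way and the median was -0.05. Hmgb2, a chromatin protein of dividing cells, stood at 1030 against 1221 CPM, and Cks2, a subunit of cyclin-dependent kinases, at 272 against 334 CPM. Ube2c, the ubiquitin-conjugating enzyme of the anaphase-promoting complex, stood at 94.3, 89.0, 58.7 and 87.0 CPM in suffixes 1 to 4, so suffix 3 was the lowest. Dlgap5, a spindle protein, stood at 10.2 against 16.0 CPM. The other 12 of the 15 include Cdk1, Ccnb1, Cdc20, Aurkb, Birc5, Cenpa and Mki67. Of these 15 genes 0 were higher in suffix 2 than in 1, and 5 were higher in suffix 1: Cdk1, Birc5, Tacc3, Aurkb and Dlgap5.

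The cycle genes did not differ alike in every group of barcodes. Their summed level in the neutrophil gate was 3978 CPM in suffix 3 and 5897 CPM in suffix 4, with 32 of 34 measured members below 0 and a median log2 ratio of -0.63 (-0.48 with TMM factors). There Ube2c had 45 against 124 UMIs, and Birc5, which encodes survivin, 54 against 80 UMIs. The summed ratio was 0.756 in the monocyte gate and 0.706 in the mast and basophil gate. It was 1.04 in the Cd34 and Flt3 gate and 1.10 (1.04 to 1.17) in the Gsn and Tsc22d1 gate, where suffix 3 was higher. Differences between gates were not tested.

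The 7 genes counted as higher in suffix 4 form no list. Rsrp1, which encodes an arginine- and serine-rich protein, lies on chromosome 4 (134923592 to 134927671, plus strand, GRCm38) and stood at 696, 729, 506 and 825 CPM in suffixes 1 to 4, with a ratio of suffix 4 over 3 of 1.63 (1.57 to 1.69). It was higher in suffix 4 in all 8 groups. Grhpr, glyoxylate reductase, stood at 13.9 against 26.1 CPM, and at 24.3 and 43.0 CPM in suffixes 1 and 2. Retnla, a resistin-like secreted protein, stood at 14.6 against 29.6 CPM in 25 and 30 barcodes, with 0 UMIs in suffixes 1 and 2. The 4 highest barcodes held 77.9% of its UMIs in suffix 3 and 74.3% in suffix 4. The chemokine gene Ccl6 was at 24.3 against 39.6 CPM in 152 and 194 barcodes. Narf, Cdk2ap1 and Ccdc71l made up the rest.

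Over the 8 groups of barcodes, 40 of the 59 genes higher in suffix 3 and 4 of the 7 higher in suffix 4 had the same direction in each group. The groups are parts of the sums that picked these genes, so some of this agreement was built in. Gene counts inside a group rest on fewer UMIs, and the 1.5-fold rule counted 7.44% of tested genes either way in the neutrophil gate, 5.74% in the monocyte gate, 5.23% in the Elane-high gate, 5.02% in the Lpl and Wfdc17 gate, 5.15% in the mast and basophil gate, 4.76% in the Cd34 and Flt3 gate, 5.27% in the Gsn and Tsc22d1 gate and 2.14% outside all gates. Of the 80 genes with the largest ratios inside the groups, 35 had under 20 UMIs in the higher suffix. Genes at 100 CPM or more, a minimum chosen after the data were seen, are named here instead.

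In the Elane-high gate suffix 3 was higher for S100a8 (4067 against 1318 UMIs), and suffix 4 was higher for Chil3 (660 against 1989 UMIs) and for Lyz2, the lysozyme gene (2705 against 4279 UMIs, ratio 0.601). Elane itself, a gene of the gate, had a ratio of 1.06. In the monocyte gate Chil3 had 480 against 1170 UMIs and Mif 59 against 135 UMIs. The mast and basophil gate held less of the neutrophil elastase gene in suffix 3 (Elane 85 against 272 UMIs, ratio 0.234), and so did the Gsn and Tsc22d1 gate (355 against 717 UMIs, 0.416). Lyz2 was higher in suffix 3 in the mast and basophil gate, at 1014 against 356 UMIs (2.14, 1.89 to 2.42), and lower in the Gsn and Tsc22d1 gate, at 0.597. Barcodes of the mast and basophil gate had a median multiple of the Lpl and Wfdc17 markers of 2.99 in suffix 3 and 1.37 in suffix 4. The part of this difference in the Lyz2 ratio was not tested. In the Lpl and Wfdc17 gate the antigen presentation gene Cd74 had 49 against 132 UMIs, but 1 barcode of suffix 4 held 91.7% of the latter. Outside all gates Cd74 had 118 against 15 UMIs. Over all kept barcodes of suffix 3 the 4 highest held 46.9% of its 290 UMIs. How many barcodes carried the UMIs outside all gates is not given. A gene's ratio thus differed in direction between groups for Elane, Lyz2 and Camp. For Camp the ratios above 1 were all outside the neutrophil gate, where the part of free RNA was not tested. How the UMIs of Elane and Lyz2 were spread over barcodes is not given. For Cd74 the lower ratio in the Lpl and Wfdc17 gate rested mostly on that 1 barcode. These differences were not tested.

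The remaining lists with at least 7 measured members had median log2 ratios between -0.16 and 0.05. Targets of p53 (20 measured), DNA repair (31), handling of cytarabine and doxorubicin (17) and heat shock (15) had 0 members counted in either direction by the 1.2-fold rule, with medians of -0.12, -0.08, -0.07 and -0.05. The interferon list had a median of 0.00, with Ifi27l2a (56.4 against 39.5 CPM) higher in suffix 3 and Gbp7 (5.13 against 7.84 CPM) in suffix 4, of 24 members. The antioxidant and NRF2 list had 7 of 26 members higher in suffix 4 and 0 in suffix 3, among them Hmox1 (heme oxygenase, 24.0 against 32.5 CPM) and Gclm (glutathione synthesis, 26.1 against 33.6 CPM), and a median of -0.09. Of 17 immediate early genes 3 were higher in suffix 4: Fos (32.4 against 42.5 CPM), Junb and Dusp1. Of 17 stem and progenitor genes 1 was counted, Egfl7, higher in suffix 4. Among myeloid transcription factors Cebpa (50.8 against 67.6 CPM) and Cebpb (173 against 231 CPM), which drive granulocyte and monocyte genes, were higher in suffix 4, and Id2 (139 against 107 CPM) and Gata2 in suffix 3.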

How the data were processed

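The table deposited by the authors gives raw UMI counts, in whole numbers, of 27998 gene symbols in 5664 barcodes. Libraries were 10x Chromium 3' V2, per the labels' protocols. Cell Ranger 1.3, mm10 and Seurat 2.3.4 are named in the submitters' processing notes, Seurat 1.4 in the series design text. The annotation behind the gene counts is not named in them.

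UMIs were summed per gene and suffix and scaled to CPM in Python 3.11.15 (numpy 2.4.6, scipy 1.17.1, pandas 2.3.3). The 95% intervals are exact: Poisson around a CPM, binomial around a share, and binomial given the sum of both counts around a ratio. They treat UMIs as independent and cover no variation between animals or libraries. A gene at 0 UMIs was given an upper limit of 3 counts, 0.302 CPM in suffix 3 and 0.351 CPM in suffix 4. With 1 library a suffix and cells that are no replicates, there was no p-value. A list's value is the median of log2((CPM + 1) / (CPM + 1)) over members with a mean of 5 CPM or more, with an order-statistic interval. It understates changes of low genes. Groups under 30 barcodes were not compared, and genes of a gate were not counted inside it. Scrublet in scanpy 1.11.5 marked 0 and 2 barcodes as doublets and is taken not to have worked, so none were removed. Alternatives used TMM factors from edgeR 4.0.16 in R 4.3.3, barcodes thinned to 2000 UMIs, other limits and gates, and ratios centred by transcript length (GENCODE vM21). The counting rule was tested on simulated data.

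Genes named are the 15 largest ratios each way, 5 each way per gate, and for each list the 2 members with the highest mean and the 2 others with the largest ratio, with a few left out. Others were picked after their values were seen: further ribosomal, respiratory, granule, glycolysis, HIF-induced and cell cycle members, those followed through the gates, and genes at 100 CPM or more there. The members and lists were chosen with earlier results of these data known. One result is not reported here.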

Additional observations from a re-analysis of the deposited data

How the results depend on the processing

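Recomputed under the other settings run, 354 list medians and all 63 gate shares moved by less than their 95% interval. Of the values of single genes and the median of all genes, 286 did so, 44 moved further with no change of sign (S100a8, Chil3 and Gapdh among them), and the 5 that reversed are the medians of all genes and Xist below. The count of genes higher in suffix 3 (59) was 89 with barcodes thinned to 2000 UMIs, 118 at a minimum of 5 CPM, 181 with no minimum, 151 at a lower fold limit and 6 at 2-fold. The count higher in suffix 4 (7) was 11 at a mitochondrial limit of 5%, 15 as a mean over barcodes, 79 thinned, 11 with gate shares held at pooled values, 99 at 5 CPM, 191 with no minimum, 161 at the lower fold limit, 1 at 2-fold and 12 without the top 5% of UMIs. Thinning and lower minimums rest on fewer UMIs per gene. The secondary and tertiary granule median reversed to -0.027 with gate shares held at pooled values. The interferon median was 0.037 with TMM, 0.13 thinned and 0.049 centred by length. The G2 and M median was -0.15 with TMM and -0.15 centred by length. The immediate early median was -0.082 as a mean over barcodes and -0.10 centred by length, S phase -0.089 thinned and DNA repair -0.037 centred by length. The median of all genes became 0.0040 with TMM and 0.0018 centred by length. The log2 ratio of Xist turned from below 0 to 0.0041 with TMM, 0.0028 as a mean over barcodes and 0.022 thinned. Counts higher in suffix 3 and in suffix 4 inside the neutrophil gate (89 and 246) were 166 and 112 with TMM, so which suffix had more rests on that scaling. Outside all gates the count higher in suffix 4 (46) was 20 with gates at 3 times. At 100 CPM the counts were 32 and 55 (neutrophil), 44 and 35 (monocyte), 45 and 8 (Elane-high), 42 and 21 (Lpl and Wfdc17), 74 and 30 (mast and basophil), 40 and 11 (Cd34 and Flt3), 45 and 16 (Gsn and Tsc22d1) and 33 and 2 (no gate). Except where stated, the cause was not tested. No paired analysis was possible because each suffix is 1 library with no replicate number. Depth limits genes under 20 CPM, which is 199 UMIs in suffix 3 and 171 UMIs in suffix 4, and gates of few barcodes.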

Other observations

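The barcodes over the mitochondrial limit numbered 71 in suffix 3 and 44 in suffix 4, with median depths of 2019 and 1932.5 UMIs and median mitochondrial shares of 15.4% and 15.3%, and 0 of them met the neutrophil gate. Xist, the RNA of the inactive X chromosome, stood at 1288 CPM in suffix 3 and 1323 CPM in suffix 4. The nuclear RNAs Malat1 and Neat1 stood at 9927 against 9658 CPM and 98.4 against 102 CPM. Mef2c, a transcription factor active in MLL-rearranged leukaemia, was at 304 against 248 CPM, and Kmt2a, the gene whose human counterpart is MLL, at 44.2 against 35.6 CPM. Ccl2, a monocyte chemokine, had 31 UMIs in suffix 3, all in 1 barcode, and 4 UMIs in suffix 4. These values were picked after they were seen and carry no explanation.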
